A study of Mus musculus with 8 samples.

Results

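Epithelial cells keep or lose their character under opposed groups of regulators, and an embryonic pancreas bud holds both an epithelium and the mesenchyme around it. Described here are 10 genes: the 6 EMT drivers Snai1, Snai2, Zeb1, Zeb2, Twist1 and Twist2, transcription factors best known for repressing epithelial genes in epithelial-to-mesenchymal transition (EMT), and the 4 epithelial identity regulators Grhl2, Ovol2, Esrp1 and Esrp2. They were chosen by name from the 24341 genes of the table, and all 10 were found in it and passed the filter on low values. Total RNA was sequenced from 8 single buds of CD1 mice at E11.0, of which 5 were labelled WT and 3 Pdx1Creearly;Lats1f/f;Lats2f/f, called Lats1/2-null below. In these mutants Cre is driven by Pdx1 in the pancreatic progenitor epithelium, so that the Hippo pathway kinases LATS1 and LATS2 are targeted there and not in mesenchymal, endothelial or blood cells. Mesenchyme was removed by hand before RNA isolation, and whatever remained was sequenced with the epithelium. The study's methods speak of wild-type or heterozygous littermates as controls, while the labels give WT. They also name CD1 mice for wild-type analyses, and floxed and Cre lines for the other experiments. Nothing in the labels says which buds came from the same litter.

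SNAI, ZEB and TWIST proteins bind E-box elements and repress genes such as Cdh1, which encodes E-cadherin, and they are also ordinary transcription factors of embryonic mesenchyme. GRHL2, a grainyhead-like factor, and OVOL2, a zinc finger repressor, maintain epithelial gene expression, and both oppose Zeb1 in mutual repression. ESRP1 and ESRP2 are RNA-binding proteins that direct the splicing pattern of epithelial cells. In the embryonic pancreas the epithelium forms the future ducts, acini and islets, while the mesenchyme supplies growth signals.

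Stretches of 250 bases directly upstream of a RefSeq transcription start (GRCm38.p6) were read for 5 of the 10 genes in 8 windows: Snai1, Zeb2, Twist1, Twist2 and Ovol2. They are shown for 3 genes, Snai1 because its window carries an E-box, and Twist2 and Ovol2 because they come from opposite groups and their levels separated the genotypes below. Each runs 5′ to 3′ on the gene's own strand and ends at the base before the start, and capitals mark the E-box CACCTG.
Snai1, chr2:167537945-167538194, plus strand: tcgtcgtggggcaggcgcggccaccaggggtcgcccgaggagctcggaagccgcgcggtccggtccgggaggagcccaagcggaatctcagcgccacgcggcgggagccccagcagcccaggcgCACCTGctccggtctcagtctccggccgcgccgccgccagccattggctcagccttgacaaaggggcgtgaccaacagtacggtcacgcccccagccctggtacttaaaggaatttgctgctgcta
Twist2, chr1:91801211-91801460, plus strand: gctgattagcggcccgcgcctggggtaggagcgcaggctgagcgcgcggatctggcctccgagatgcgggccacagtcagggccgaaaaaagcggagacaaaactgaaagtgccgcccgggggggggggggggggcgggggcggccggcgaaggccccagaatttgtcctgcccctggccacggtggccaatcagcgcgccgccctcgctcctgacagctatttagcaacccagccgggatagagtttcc
Ovol2, chr2:144331363-144331612, minus strand: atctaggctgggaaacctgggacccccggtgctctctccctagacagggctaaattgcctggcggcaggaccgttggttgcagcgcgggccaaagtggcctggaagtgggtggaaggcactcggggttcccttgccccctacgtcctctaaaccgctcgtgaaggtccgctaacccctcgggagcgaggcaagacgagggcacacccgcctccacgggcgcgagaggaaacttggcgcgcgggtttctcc
The E-box CACCTG, a sequence bound by SNAI and ZEB proteins, was searched on both strands and lay in 1 of the 8 windows, 126 bases before the Snai1 start, against 17.2% of 32851 such windows genome-wide. The grainyhead sequence AACCGGTT lay in 0 of 8 windows and in 0.116% of all windows. CATTCC, a sequence bound by TEAD factors, lay in 1 of 8, 157 bases before a Zeb2 start, against 12.6% of all windows. The windows of Snai1 (70.0% G and C, 27 CpG), Twist2 (68.8%, 23 CpG) and Ovol2 (65.2%, 20 CpG) were rich in CpG beside a median of 6 CpG over all windows. Zeb2 had several of the windows, some of them overlapping, so the 8 windows are not 8 separate promoters. Of the regulators only Ovol2 had a window. These matches describe letters and not bound sites.

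Levels are FPKM, the number of sequenced fragments scaled to transcript length and library depth, and differences are Lats1/2-null minus WT on the log2(FPKM + 1) scale, which understates the change of low genes. In a transcript of 1 kilobase a single fragment was worth 0.099 to 0.106 FPKM in 7 libraries and 0.1325 in WT replicate 5, and 16117 to 16982 genes were above 0. The Cre acts in the epithelium only and FPKM covers the whole gene, so that the targeted genes are a partial check of the labels. Lats1 stood at 15.6 ± 0.905 FPKM in WT (SD, n = 5) and 12.1 ± 1.87 in Lats1/2-null buds (SD, n = 3, limma adjusted p = 0.269). Every mutant bud was below every WT bud, as in 3.06% of all tested genes. Lats2 stood at 13.8 ± 1.26 and 12.3 ± 1.15, and the groups overlapped. By limma, 2 of 13777 tested genes, or 0.0145%, passed an adjusted p of 0.05, and none was among the 10 genes described here. An unadjusted p below 0.05 was reached by 11.3% of tested genes (6.29% higher and 4.99% lower in the mutants) and by 6 of the 10.

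Every epithelial identity regulator was higher in Lats1/2-null buds, in each case with all 3 mutant buds above all 5 WT buds, a pattern found in 4.46% of tested genes (groups without overlap in either direction made up 7.51%). Mean FPKM was 2.39 to 3.36 times the WT mean, and all 4 had an unadjusted p below 0.05 by limma, although none passed the adjusted threshold. In bulk RNA, more epithelial cells in a bud and more RNA per epithelial cell cannot be told apart, nor can fewer mesenchymal cells and less RNA per mesenchymal cell.

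Grhl2 (chr15:37233036-37363568, mm10) encodes the grainyhead-like factor of embryonic epithelia. Its FPKM in WT replicates 1 to 5 was 1.98, 2.77, 2.16, 2.45 and 1.201, and in Lats1/2-null replicates 1 to 3 it was 6.18, 4.46 and 10.7. The lowest mutant bud thus lay above the highest WT bud, and the mutant buds were spread over a wider range than the WT buds. The means were 2.11 ± 0.592 (SD, n = 5) and 7.10 ± 3.20 (SD, n = 3), a ratio of 3.36. The difference was 1.33 on the log2 scale (SE 0.256, 95% interval 0.75 to 1.91, limma unadjusted p = 0.000548, adjusted p = 0.127), and the exact two-sided permutation test over 56 splits gave p = 0.0179, the smallest it can give. Without Lats1/2-null replicate 3 the ratio was 2.52.

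Ovol2 (chr2:144305176-144332080), the zinc finger repressor, was the least abundant of the 10 genes. WT replicates 1 to 5 had 0.911, 0.0931, 1.23, 0.970 and 0.352 FPKM, and Lats1/2-null replicates 1 to 3 had 2.73, 1.49 and 2.14. The gap between the groups was narrow, from 1.23 to 1.49. At the annotated transcript length these values correspond to about 1.4 fragments in WT replicate 2 and up to about 40 in Lats1/2-null replicate 1. The difference was 0.90 (SE 0.258, limma unadjusted p = 0.00680, adjusted p = 0.269, exact permutation p = 0.0357).

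Esrp1 (chr4:11331933-11386783) was the most abundant of the regulators. WT replicates 1 to 5 had 6.70, 6.79, 4.935, 3.93 and 6.81 FPKM, and Lats1/2-null replicates 1 to 3 had 11.8, 7.94 and 22.1. Lats1/2-null replicate 2 lay close above the WT buds and replicate 3 far above them. The difference was 1.04 (SE 0.287, 95% interval 0.39 to 1.69, limma unadjusted p = 0.00545, adjusted p = 0.259), the mean ratio 2.39 and, without Lats1/2-null replicate 3, 1.69.

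Esrp2 (chr8:106131183-106138722), the second epithelial splicing regulator, followed the same order among the mutant buds. Its WT values were 2.17, 3.09, 2.098, 2.48 and 2.98 FPKM, and its Lats1/2-null values 6.42, 3.69 and 11.3. Again all mutant buds were above the WT buds and replicate 2 was the nearest to them. The difference was 1.09 (SE 0.269, 95% interval 0.48 to 1.70, limma unadjusted p = 0.00287, adjusted p = 0.205), with a mean ratio of 2.78 and of 1.97 without Lats1/2-null replicate 3. The locus given in the table also holds a transcript on the other strand, 1810019D21Rik, at 1.26 FPKM in WT and 3.89 in Lats1/2-null buds. Exact permutation tests gave p = 0.0179 for Esrp1 and for Esrp2.

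**Figure D1:**
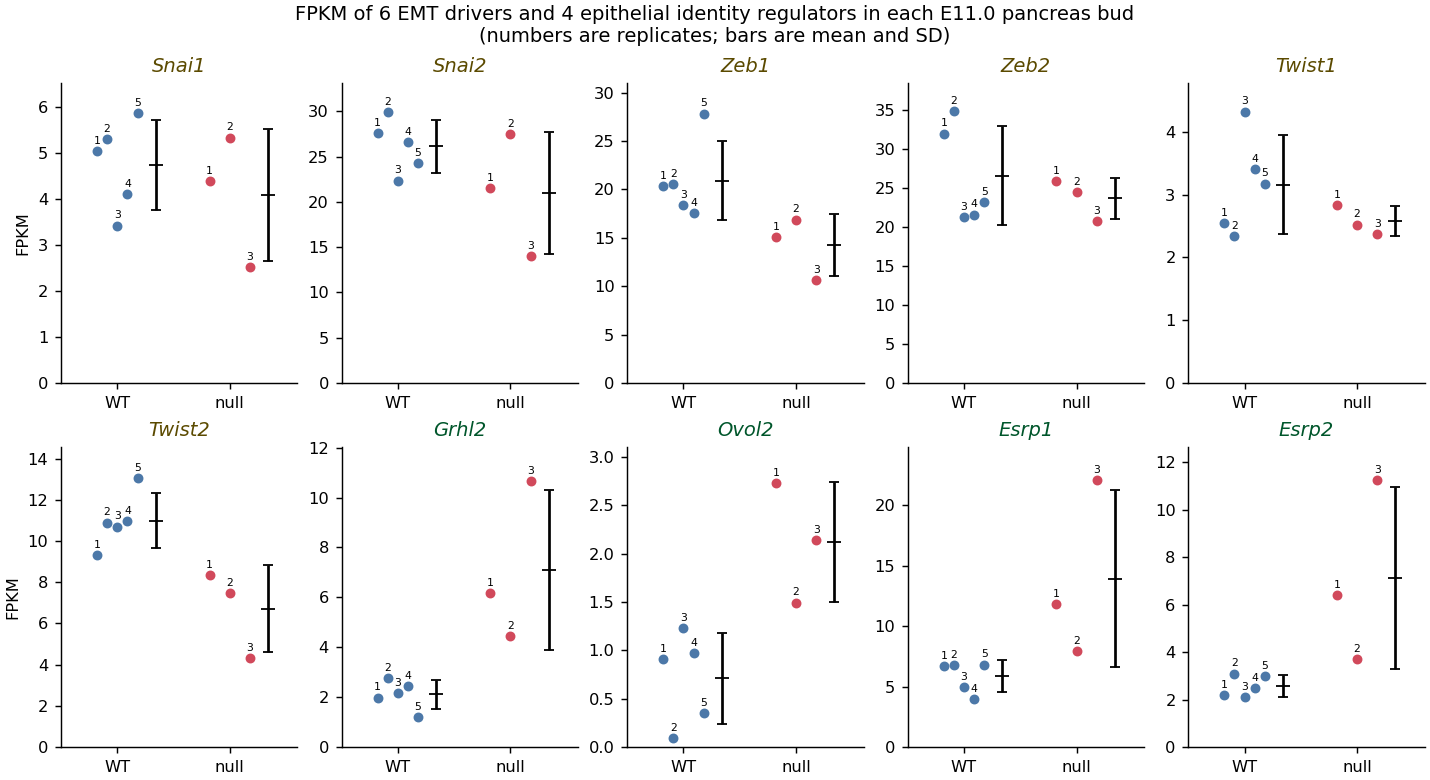
FPKM of the 10 genes in each bud, with 1 panel per gene and its own linear axis starting at 0; points are single buds (5 WT, 3 Lats1/2-null), and bars show the mean and SD of each group. All 3 Lats1/2-null buds lie above the WT buds for the 4 epithelial identity regulators and below them for Zeb1 and Twist2, and the groups overlap for Snai1, Snai2, Zeb2 and Twist1.

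The EMT drivers were all lower on average in the Lats1/2-null buds, but by less: the median difference of the 6 was -0.27 on the log2 scale, beside -0.01 over all genes tested and 1.06 for the 4 regulators. A lower mean was found for 53.1% of all tested genes. Only for Twist2 and Zeb1 did all 3 mutant buds lie below all WT buds, a pattern found in 3.06% of tested genes. Without Lats1/2-null replicate 3 the median of the drivers was -0.125. No driver was higher on average in the mutants with all buds in.

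Of the SNAIL family, Snai1 (chr2:167538227-167542811) encodes SNAIL, a direct repressor of Cdh1. WT replicates 1 to 5 had 5.04, 5.30, 3.42, 4.10 and 5.87 FPKM and Lats1/2-null replicates 1 to 3 had 4.39, 5.33 and 2.51, so that replicates 1 and 2 lay inside the WT range and replicate 3 below it. The difference of -0.20 (SE 0.214, 95% interval -0.69 to 0.28, limma unadjusted p = 0.367) turned to 0.04 without Lats1/2-null replicate 3. Snai2 (chr16:14705859-14709382), which encodes SLUG and marks neural crest and mesenchyme, was among the most abundant drivers. It had 27.6, 29.9, 22.35, 26.6 and 24.3 FPKM in WT and 21.5, 27.5 and 13.97 in Lats1/2-null buds. Of these, replicate 2 lay inside the WT range and the other mutant buds below it (difference -0.35, SE 0.185, 95% interval -0.76 to 0.07, limma unadjusted p = 0.0940). Without Lats1/2-null replicate 3 the Snai2 difference was -0.09.

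Of the ZEB family, Zeb1 (chr18:5491501-5775468) encodes the factor set against GRHL2 and OVOL2 in the double-negative loops described for epithelial cells. Its WT values were 20.3, 20.5, 18.3, 17.5 and 27.8 FPKM and its Lats1/2-null values 15.1, 16.9 and 10.7. Every mutant bud was below every WT bud, though replicate 2 missed the lowest WT bud by little. The means were 20.9 ± 4.08 (SD, n = 5) and 14.2 ± 3.21 (SD, n = 3), with a difference of -0.53 (SE 0.173, 95% interval -0.92 to -0.14, limma unadjusted p = 0.0130, adjusted p = 0.314, exact permutation p = 0.0179). Without Lats1/2-null replicate 3 it was -0.35, with a limma unadjusted p of 0.0617. Zeb2 (chr2:44983512-45114084), the related repressor, was the most abundant of the 10 genes, with 32.0, 34.9, 21.3, 21.6 and 23.2 FPKM in WT and 25.9, 24.5 and 20.8 in Lats1/2-null buds. The groups overlapped, and the difference of -0.13 (SE 0.173, 95% interval -0.53 to 0.26) was smaller than the spread among WT buds and came to -0.05 without Lats1/2-null replicate 3. The spans printed for Zeb1 and Zeb2 are the loci of the table and may reach beyond the gene itself. These loci also hold the antisense transcripts Gm10125, at 0.143 FPKM in WT and 0.0229 in Lats1/2-null buds, and Zeb2os, at 2.755 and 2.71.

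Of the TWIST family, Twist1 (chr12:33957671-33959831), a basic helix-loop-helix factor of cranial and limb mesenchyme, was low in every bud. WT buds had 2.54, 2.34, 4.33, 3.41 and 3.18 FPKM and Lats1/2-null buds 2.84, 2.52 and 2.37, all of them inside the WT range (difference -0.20, SE 0.166, limma unadjusted p = 0.260). Twist2 (chr1:91801477-91848027), its close relative, was higher throughout and had the largest difference of the 6 drivers. Its WT values were 9.33, 10.9, 10.7, 10.96 and 13.1 FPKM, and its Lats1/2-null values 8.36, 7.48 and 4.33, with no overlap. The means were 10.99 ± 1.34 (SD, n = 5) and 6.72 ± 2.12 (SD, n = 3), and the difference was -0.67 (SE 0.181, 95% interval -1.078 to -0.26, limma unadjusted p = 0.004905, adjusted p = 0.250, exact permutation p = 0.0179). Without Lats1/2-null replicate 3 it was -0.42.

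**Figure D2:**
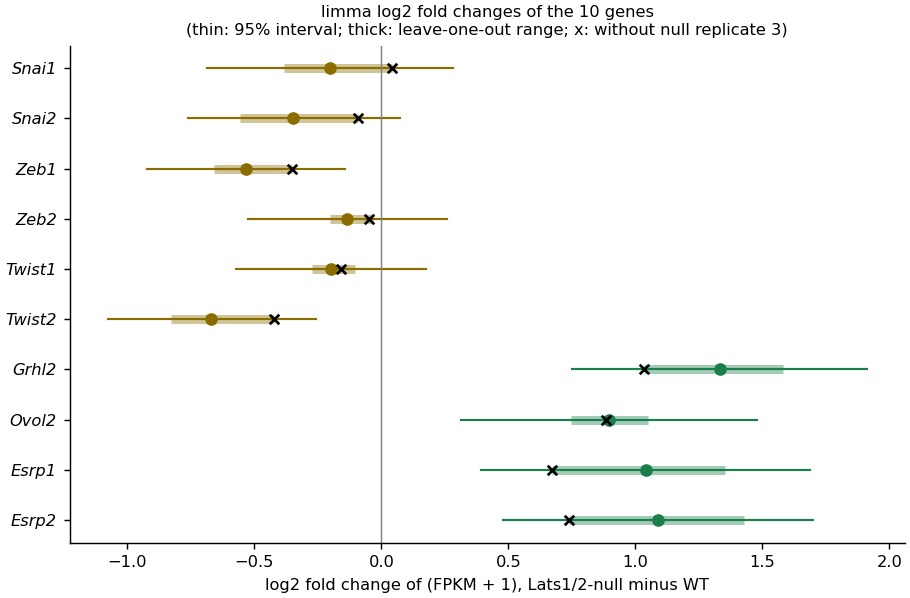
Difference of the 10 genes, Lats1/2-null minus WT on the log2(FPKM + 1) scale by limma, with points for the estimate, thin lines for the 95% interval, thick lines for the range when each bud was left out in turn and crosses for the value without Lats1/2-null replicate 3. The intervals of the 4 epithelial identity regulators lie above 0, those of Zeb1 and Twist2 below it, and those of Snai1, Snai2, Zeb2 and Twist1 cross it. The fit took a common spread for both groups. Intervals may thus be too narrow for Grhl2, Esrp1, Esrp2 and Twist2, where the mutant buds varied more. The cross of Snai1 lies on the other side of 0, at 0.04.

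In order of level, FPKM being a per-length measure, WT buds had Zeb2 (26.6), Snai2 (26.1) and Zeb1 (20.9) at the top with overlapping ranges, then Twist2 (10.99) apart from both neighbours, then Esrp1 (5.83), which was apart from Twist2. Below it Snai1 (4.75), Twist1 (3.16), Esrp2 (2.56), Grhl2 (2.11) and Ovol2 (0.711) each overlapped the next gene in the order. In Lats1/2-null buds the order was Zeb2 (23.7), Snai2 (20.99), Zeb1 (14.2), Esrp1 (13.9), Esrp2 (7.12), Grhl2 (7.10), Twist2 (6.72), Snai1 (4.08), Twist1 (2.58) and Ovol2 (2.12), with every neighbouring pair overlapping. Esrp1 thus stood beside Zeb1 in the mutant buds, and Esrp2 and Grhl2 beside Twist2.

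Summed over each group of genes, the drivers gave 96.8, 104, 80.4, 84.2 and 97.4 FPKM in WT replicates 1 to 5 and 78.1, 84.2 and 54.6 in Lats1/2-null replicates 1 to 3. The regulators gave 11.8, 12.7, 10.4, 9.83 and 11.3 FPKM in WT and 27.1, 17.6 and 46.1 in the mutants. The regulators thus separated the genotypes and the drivers did not. The ratio of summed drivers to summed regulators was 7.72 to 8.59 in the WT buds (8.25 ± 0.357, SD, n = 5), a narrow range, and 2.88, 4.78 and 1.185 in the Lats1/2-null buds (2.95 ± 1.80, SD, n = 3). Both sums are dominated by their most abundant genes, Zeb2, Snai2 and Zeb1 on one side and Esrp1 on the other.

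**Figure D3:**
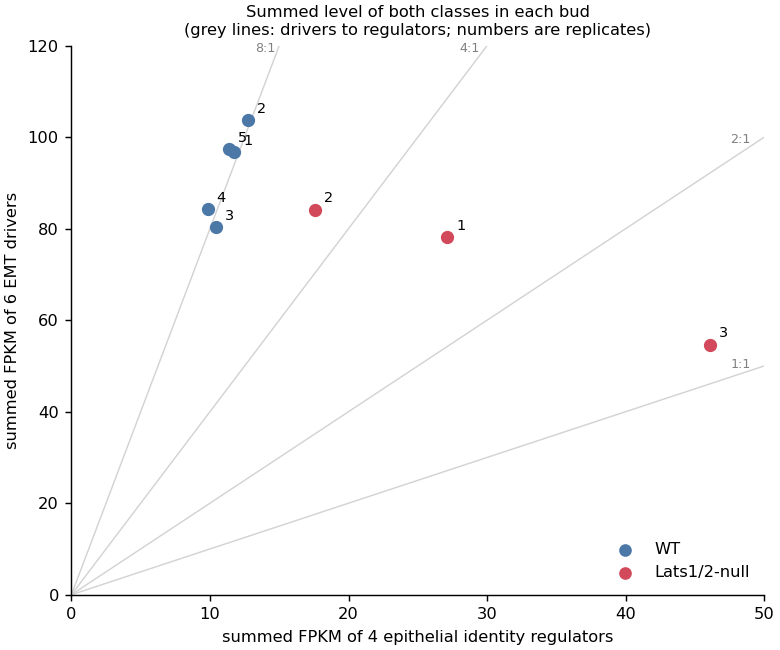
Summed FPKM of the 6 EMT drivers against that of the 4 epithelial identity regulators in each of the 8 buds, with points for buds numbered by replicate and grey lines for constant ratios of drivers to regulators. WT buds lie at 9.83 to 12.7 FPKM of regulators and 80.4 to 104 of drivers, and the Lats1/2-null buds at 17.6 to 46.1 and 54.6 to 84.2, with replicate 3 the farthest from the WT buds.

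The mutant buds differed among themselves in a shared way. Lats1/2-null replicate 3 was the lowest of the 3 mutant buds in 6 of 6 drivers and the lowest of all 8 buds in 5 of them, Twist1 being the exception. For comparison, 20.6% of tested genes were lowest of 8 in that bud. It was also the highest of 8 in 3 of 4 regulators, against 20.5% of tested genes, and Ovol2 was the exception, with its highest value in Lats1/2-null replicate 1. Lats1/2-null replicate 2 was the lowest of the mutant buds in 4 of 4 regulators. For orders among the 3 mutant buds alone, the share over all tested genes was not computed. Genes measured in the same 3 buds are also not separate observations. Cdh1 followed the order of Grhl2, Esrp1 and Esrp2, at 46.2, 35.4 and 94.9 FPKM in Lats1/2-null replicates 1 to 3 and 21.1 to 31.2 in WT buds.

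Markers of pancreatic epithelium and of mesenchyme moved with these orders. Of the pancreatic epithelium markers, 13 of 14 tested were higher and 1 lower in the mutants, 8 of them with an unadjusted p below 0.05 (6.29% of all tested genes were higher at that threshold), and the summed FPKM of those tested was 180 to 258 in WT and 377, 284 and 714 in Lats1/2-null replicates 1 to 3. Epcam, the most abundant, had 31.5 to 46.9 FPKM in WT and 64.1, 56.0 and 136.5 in Lats1/2-null buds. Of the mesenchyme markers 16 of 17 tested were lower, 4 with an unadjusted p below 0.05, beside 53.1% and 4.99% of all tested genes. Their median difference was -0.47, and -0.15 without Lats1/2-null replicate 3, and the sum of those tested was 995.5 to 1144 FPKM in WT and 787, 990.5 and 564 in the mutants. Barx1, the most abundant of them, had 173 to 500.1 FPKM in WT buds and 183, 302 and 115 in Lats1/2-null replicates 1 to 3. So mesenchyme markers were plentiful in every bud, and in both groups of markers Lats1/2-null replicate 3 was the farthest from WT and replicate 2 the nearest. The endothelium markers were lower in 15 of 15, 3 with an unadjusted p below 0.05 (Plvap 45.1 and 37.8 FPKM in WT and Lats1/2-null buds), with sums of 199 to 331 in WT and 149 to 222 in Lats1/2-null buds. As for endothelium, the sums of the remaining marker lists overlapped between genotypes. Leukocyte markers, 7 of 12 higher and 1 with an unadjusted p below 0.05, summed to 18.25 to 36.3 FPKM in WT and 27.6 to 35.2 in Lats1/2-null buds (C1qb 2.93 and 4.18). Nerve and neural crest markers, 9 of 12 tested higher with a median of 0.31 and 2 with an unadjusted p below 0.05, summed to 34.4 to 47.8 and 44.7 to 68.9, although the most abundant, Ednrb, had lower mean FPKM in the mutants (7.82 and 6.22). Red blood cell markers, 11 of 11 tested higher with a median of 0.505 and 0 with an unadjusted p below 0.05, summed to 2667 to 15880 and 8125 to 10280 (Hbb-y 4420 and 4496). Tbx18 and Spink1 were among the markers at 0 in some buds, and no marker was at 0 in all. The part of cell make-up in the differences of the 10 genes was not tested.

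Levels set against those markers, a comparison added after seeing the data, were as follows. As a percent of Cdh1, Esrp1 was 18.6 to 27.5% in WT and 25.5, 22.4 and 23.25% in Lats1/2-null buds (exact permutation p = 0.750), so that its ratio to this epithelial gene overlapped between genotypes. Esrp2 was 10.3 ± 1.65% in WT (SD, n = 5) and 13.9, 10.4 and 11.85% in the mutants (exact permutation p = 0.161), and Ovol2 0.299 to 5.64% and 5.91, 4.22 and 2.25% (exact permutation p = 0.518). Grhl2 was 4.84 to 11.6% in WT and 13.4, 12.6 and 11.2% in the mutants, where 1 bud lay inside the WT range (exact permutation p = 0.0714). Set against Epcam, Grhl2 was 3.82 to 6.51% in WT and 9.645, 7.97 and 7.81% in the mutants, with no overlap (exact permutation p = 0.0179). Relative to the mean log2 level of the epithelium markers it was 0.54 higher (exact permutation p = 0.0357), while the same measure was 0.11 for Ovol2 (p = 0.804 by exact permutation), 0.25 for Esrp1 (0.214) and 0.30 for Esrp2 (0.196).

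The drivers were set against the mesenchyme markers in the same manner. Summed drivers came to 8.75 ± 1.34% of the summed mesenchyme markers in WT buds (SD, n = 5) and to 9.37 ± 0.768% in Lats1/2-null buds (SD, n = 3). Barx1, the most abundant of those markers, weighs heavily in their sum and varied widely among WT buds. Relative to the mean log2 level of those markers, Twist2 was -0.22 (exact permutation p = 0.143) and Zeb1 -0.08 (exact permutation p = 0.857), and all buds overlapped. On that scale the other drivers pointed up and not down: Snai1 0.24, Snai2 0.10, Zeb2 0.31 and Twist1 0.25, with exact permutation p between 0.143 and 0.339. These are levels in a mixed tissue, and which cells carried the driver RNA was not measured.

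**Figure D4:**
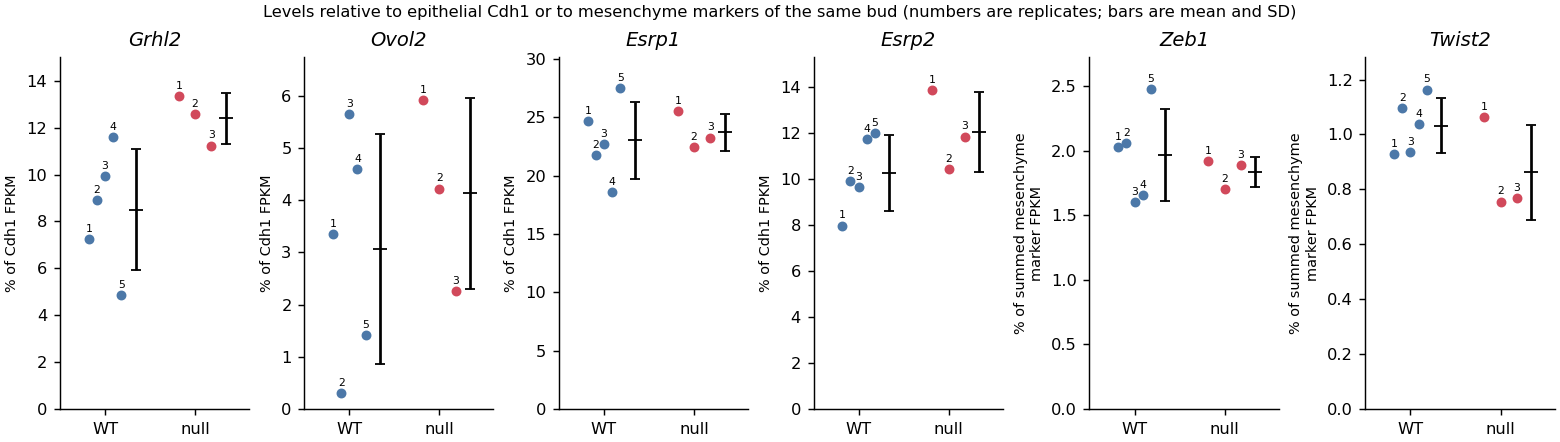
Level of each regulator as a percent of Cdh1 FPKM, and of Zeb1 and Twist2 as a percent of the summed mesenchyme marker FPKM, in the same bud; linear axes start at 0, points are the 5 WT and 3 Lats1/2-null buds, and bars are the mean and SD. The groups overlap in all 6 panels, with Grhl2 the nearest to separate: 4.84 to 11.6% in WT and 11.2 to 13.4% in Lats1/2-null buds.

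Of the wider network, 16 of 20 other EMT-associated transcription factors passed the filter, and 3 were higher and 13 lower in the mutants, 2 and 5 of them with an unadjusted p below 0.05 (median -0.15), beside 6.29% and 4.99% of all tested genes. The helix-loop-helix inhibitors Id3 (78.8 ± 9.72 and 55.4 ± 5.35 FPKM in WT and Lats1/2-null buds, difference -0.50, limma adjusted p = 0.150) and Id2 (158 ± 8.91 and 125 ± 22.5, -0.35) led the list with the E-protein Tcf4 (23.7 ± 0.820 and 21.3 ± 0.776, -0.15). In these 3 genes, picked for the smallest p, every mutant bud was below every WT bud, as in 3.06% of all tested genes. The inhibitors Id2 and Id3 are among the 5 lower genes, so that count does not describe only factors that promote EMT. Those higher with an unadjusted p below 0.05 were Prrx1, a homeobox factor at 0.5001 and 1.36 FPKM, and Sox4, at 70.35 and 84.9.

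Of 20 other epithelial regulators 11 passed the filter, 8 higher and 3 lower. Their median of 0.34 was 0.05 without Lats1/2-null replicate 3. By limma, 5 were higher and 2 lower with an unadjusted p below 0.05, beside 6.29% and 4.99% of all tested genes. All mutant buds lay above all WT buds in 4 and below them in 1, beside 4.46% and 3.06% of all tested genes. Foxa2, a pioneer factor of endoderm, had 8.29 to 13.9 FPKM in WT and 22.5, 14.25 and 25.45 in Lats1/2-null replicates 1 to 3, all of them above the WT buds (difference 0.77, limma adjusted p = 0.236). Grhl3, a paralog of Grhl2, was on the contrary lower in every mutant bud than in any WT bud. It stood at 0.994 ± 0.398 FPKM (SD, n = 5) and 0.391 ± 0.1905 (SD, n = 3, difference -0.51, limma unadjusted p = 0.0250, adjusted p = 0.366). These are low values, 0.177 to 0.541 FPKM in the mutant buds. Klf5, a factor of gut epithelium, had means of 5.39 and 3.57 FPKM with overlapping groups. Grhl3, Klf5, Prrx1 and Sox4 were named after their values were seen. Foxa2 is also in the pancreatic epithelium marker list.

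Epithelial junction and surface genes, among them many known targets of the drivers and of Grhl2, were higher in 33 of 35 tested and lower in 2, with an unadjusted p below 0.05 for 30 and 1 (6.29% and 4.99% of all tested genes), and a median difference of 0.97 (0.59 without Lats1/2-null replicate 3). Cldn3, a tight junction claudin, stood at 7.21 to 9.96 FPKM in WT and 24.5, 21.6 and 53.1 in Lats1/2-null buds (difference 1.70, limma adjusted p = 0.0743). Krt19, a keratin of ducts, stood at 3.42 ± 0.745 and 25.3 ± 18.9 (2.365, limma adjusted p = 0.0747), and Mal2, a protein of apical transport, at 0.519 ± 0.224 and 7.55 ± 6.05 (2.29, limma adjusted p = 0.0760). Without Lats1/2-null replicate 3 the ratio of means fell from 7.40 to 4.21 for Krt19 and from 14.55 to 7.82 for Mal2. The log2 differences of Cldn3, Krt19 and Mal2 exceeded those of the 4 regulators in size. Cdh1 itself was 25.2 ± 4.135 and 58.9 ± 31.7 FPKM (1.079, limma adjusted p = 0.212). Cdh1 and Epcam stand in this list and in the epithelium markers.

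Mesenchymal effector genes of EMT were lower in 21 of 29 tested and higher in 8, with an unadjusted p below 0.05 for 9 and 2, beside 4.99% and 6.29% of all tested genes, and a median of -0.35 (-0.18 without Lats1/2-null replicate 3). The share higher at that threshold was thus near that of all tested genes. Col1a1, Col1a2 and Col3a1 stand in this list and in the mesenchyme markers. Those with the smallest p were actin-binding genes that went both ways: Tpm2 at 18.4 ± 1.40 and 13.7 ± 2.55 FPKM (difference -0.42), Cald1 at 83.5 to 122 and 120 to 155 (0.43) and Tpm1 at 145 ± 30.5 and 252 ± 101 (0.755). Vim, the intermediate filament vimentin, was 432 ± 49.7 and 519.6 ± 72.3 FPKM, with overlapping groups. Acta2 (3.06 ± 2.16 and 3.77 ± 4.47) and Tagln (4.08 ± 2.57 and 4.31 ± 4.29), smooth muscle genes, also overlapped, and each had its highest value in Lats1/2-null replicate 3. Splicing factors beside the ESRPs were higher in 6 and lower in 4 of 10 tested (median 0.015), among them Mbnl2 (16.1 and 25.4 FPKM, difference 0.595), Ptbp2 (50.7 and 39.3, -0.37) and Rbfox2 (40.2 and 34.9, -0.21). By limma, 0 genes of these lists reached an adjusted p below 0.05.

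**Figure D5:**
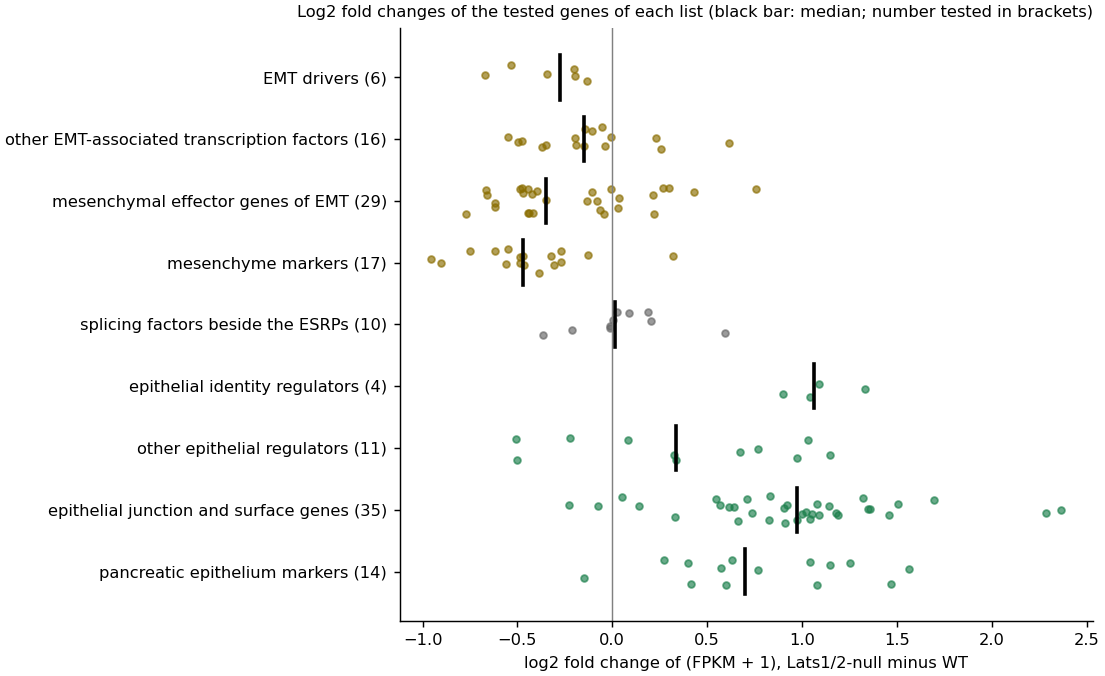
Difference of each tested gene, Lats1/2-null minus WT on the log2(FPKM + 1) scale, by list, with a point for each gene, a black bar for the list's median and the number tested in brackets. The medians run from -0.47 for mesenchyme markers to 1.06 for the 4 epithelial identity regulators, with the 6 EMT drivers at -0.27 and the junction and surface genes at 0.97; without Lats1/2-null replicate 3 the mesenchyme marker median was -0.15.

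The 11458 genes that averaged 2 FPKM or more were compared with each group of regulators. The profiles most like that of the drivers over the 8 buds, by Pearson's r with the mean of their standardised log2 levels, were Mmp16 (0.99), Rgs12 (0.99), Mrc2 (0.98), Csrnp3 (0.98) and Tek (0.98). Those most like the regulators were Cobll1 (0.99), Vnn1 (0.99), Epb4.1l5 (0.98), Sox9 (0.98) and Adamts15 (0.98). Mrc2, a collagen receptor, stood at 13.9 ± 1.27 FPKM in WT (SD, n = 5) and 10.01 ± 3.815 in Lats1/2-null buds (SD, n = 3), and Tek, the angiopoietin receptor of endothelium, at 7.05 ± 0.775 and 4.17 ± 1.82. Sox9, a factor of pancreatic progenitors, stood at 29.0 ± 3.49 and 74.4 ± 32.25, and Vnn1, a pantetheinase, at 0.622 ± 0.188 and 19.65 ± 17.1. The buds share their genotype and their epithelial and mesenchymal share across all genes, so that these likenesses are descriptions over 8 points.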

How the data were processed

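Total RNA from 8 single E11.0 buds, 5 WT and 3 Lats1/2-null by their labels, had been sequenced as stranded, ribosomal RNA depleted libraries. The authors trimmed reads with cutadapt 1.12, aligned them to mm10 with TopHat2 2.1.0 and deposited FPKM per gene from Cufflinks and Cuffdiff 2.2.1, with a status word for each value. Read counts were not used here, so the depth is known only from steps of low FPKM. The methods state quantile normalization, but the columns as deposited by the authors differ in distribution (upper quartiles of genes above 0 from 19.8 to 21.5 FPKM), and were used as deposited. Alignment used the first-strand library setting per the methods, while the strand setting of the counting step is not given in the sources used here; overlapping genes share a locus in the table, so reads of Zeb1, Zeb2 and Esrp2 and their antisense partners may not be fully separate.

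The 13777 genes averaging 0.5 FPKM or more were fitted with limma 3.58.1 in R 4.3.3 on log2(FPKM + 1), using its mean-variance trend, with Benjamini-Hochberg adjustment over all of them, at a threshold of 0.05. Single genes were also tested by exact two-sided permutation over 56 splits, whose smallest p is 0.0179. Replicates are separate buds, and p-values measure the spread between these buds. The fit took a common spread for both groups. As a percent of the mean, SD in Lats1/2-null and WT buds was 45.1 and 28.0 for Grhl2 and 52.4 and 22.7 for Esrp1. It was 53.7 and 17.7 for Esrp2, 31.55 and 12.15 for Twist2, but 29.2 and 66.2 for Ovol2. Where the mutant buds varied more, limma intervals may be too narrow and its p-values too small. The script was tested on simulated data. The fit was repeated without a filter and with a filter at 2 FPKM, with 0.1 as pseudocount, after quantile or median-ratio scaling, with array weights, without the trend, with a replicate block and without each bud. Levels relative to Cdh1, Epcam and marker lists were added after seeing the data. Starts in the table count from 0 and are printed counted from 1.

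The genes described and all lists were chosen with earlier results of these data known. Named genes are Lats1, Lats2, the 10 genes, the 3 tested genes of each pathway list with the smallest p, the most abundant gene of each marker list, Cdh1, Vim, Acta2, Tagln and the 5 genes of at least 2 FPKM most like each group. Some genes that the rule names are not reported here. Patj, Pals1 and Qki were not matched by those symbols. Plots were made in Python 3.11.15 (matplotlib 3.10.9).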

Additional observations from a re-analysis of the deposited data

Results flagged for a closer look

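Of 35 named genes examined in the 5 WT buds for a bud far from the others by Dixon's criterion, 2 were flagged, and chance flags about 1 in 20 groups. None of them is an EMT driver or one of the 4 epithelial identity regulators. Lats2 was low in WT replicate 5, at 11.6 FPKM, with a gap to the nearest bud of 0.765 of the whole range. Krt19 was low in WT replicate 3, at 2.13 FPKM, with a gap of 0.739.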

How the results depend on the processing

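The 4 regulators kept their direction in every alternative limma fit run on them. Each kept an unadjusted p below 0.05 in those fits, with adjusted p from 0.0205 to 0.719. Relative to the epithelium markers all 4 stayed above 0, and only Grhl2 kept an exact permutation p below 0.05 (0.54, p = 0.0357). Ovol2 (0.11, exact permutation p = 0.804), Esrp1 (0.25, 0.214) and Esrp2 (0.30, 0.196) did not. Adjusted p fell below 0.05 for Grhl2 and Esrp2 alone, with array weights (0.0205 and 0.0365) and without Lats1/2-null replicate 2 (0.0481 and 0.0462). Among the drivers, adjusted p ranged from 0.108 to 1. Genes called numbered 2 and became 18 with a pseudocount of 0.1, 174 with array weights, 1 with no trend, and 0 to 69 with single buds left out (69 without Lats1/2-null replicate 2, 19 without replicate 3, 1 without replicate 1, 4 without WT replicate 4 and 0 without any other WT bud). The regulators' median was 1.49 with a pseudocount of 0.1 and 0.81 to 1.39 with buds left out. The drivers' median was -0.47 to -0.125 (the latter without Lats1/2-null replicate 3), and 1 to 3 drivers had an unadjusted p below 0.05 (1 without that bud). Snai1 ranged from -0.384 to 0.042 with single buds left out, above 0 without that bud; relative to mesenchyme markers Snai1 (0.24), Snai2 (0.10), Zeb2 (0.31) and Twist1 (0.25) reversed. With single buds left out Acta2 ranged from -0.733 to 0.37, Tagln from -0.693 to 0.444 and Hbb-y from -0.062 (without WT replicate 1) to 0.568. The causes were not tested. Of 559 alternative limma fits of single genes, 529 kept direction and side of the threshold, 19 passed it and 11 reversed. All of these genes had an adjusted p above the threshold to begin with, so keeping that side is a weak check. Levels relative to markers are not in this count. Whether replicate numbers pair the buds was left undecided by a check on deviations from the group means. Same-numbered deviations correlated at 0.0855, -0.0969 and 0.0685, with the own number highest in 2 of 3. Groups of 5 and 3 buds are too small for this check to decide. The replicate block gave 1 gene called, medians of -0.32 for drivers and 1.05 for regulators, and 3 drivers with an unadjusted p below 0.05. Ovol2 fell below a minimum mean of 2 FPKM and was not tested there, and its WT values rest on few fragments.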
